A study of Homo sapiens with 6 samples.

Results

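Amino acid transporters are described here as the 59 genes, of 27968 in the gene table, whose symbols name a member of the solute carrier families SLC1, SLC3, SLC6, SLC7, SLC36, SLC38 or SLC43 followed by A and a number. Which genes belong rests on names alone and used no measured value, but the families were chosen with earlier results of these data known. The cells were H23, an established line of human lung adenocarcinoma, kept in RPMI medium with serum. They had received an siRNA specific for HOTAIR-N, one form of HOTAIR, which is a long non-coding RNA, or a control siRNA. Both were carried in by the lipid reagent RNAiMAX, and RNA was taken 48 hours later. Each group holds 3 libraries, which the design text describes as separate transfections. All 6 therefore come from 1 cell line that was also exposed to transfection reagent and an siRNA, and no other siRNA against HOTAIR-N and no untransfected cells are among them.

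These carriers move amino acids, and in SLC6 also neurotransmitters, taurine, betaine and creatine, across the plasma membrane or the lysosomal membrane. Uptake driven by sodium loads the cell with small neutral amino acids such as glutamine, and obligatory exchangers then trade these for others. The light chains of SLC7, among them the leucine and tryptophan exchanger SLC7A5 and the cystine and glutamate exchanger SLC7A11, reach the membrane only when joined by a disulfide bond to a heavy chain of SLC3. In lung tumours SLC7A5, SLC1A5, SLC3A2 and SLC7A11 are known as carriers that are often abundant.

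The libraries held 32715361 to 35329948 expected counts with HOTAIR-N siRNA and 34715341 to 36578681 with control siRNA. HOTAIR itself had 88, 74 and 82 expected counts with HOTAIR-N siRNA, against 169, 148 and 202 with control siRNA, a log2 fold change of -1.04 ± 0.14 (SE; adjusted p = 1.32e-05, edgeR quasi-likelihood test). Here and below, a positive log2 fold change means higher with HOTAIR-N siRNA, and a gene is said to be higher or lower, to rise or to fall only where its adjusted p was under 0.05. The 2 groups separated along the first principal component, which took up 75.3% of the variance. Control replicate 1 stood somewhat apart from the other control libraries, and chi-square values of counts per degree of freedom were 12.74 and 14.01 for its pairs, 6.75 for the other control pair and 2.05 to 5.66 within HOTAIR-N siRNA. The 5 epithelial markers summed to 2919 to 3289 TPM (a level adjusted for gene length, with the same total in every library) with HOTAIR-N siRNA and to 3714 to 4422 TPM with control siRNA, and none was under 1 TPM. KRT18 was lower, with a log2 fold change of -0.71, and CDH1 higher, with 1.07. Of 5 lung lineage markers 4 were under 1 TPM and SFTPA1 was at 0, and NKX2-1 alone reached 1 TPM, with a mean of 2.49 TPM with HOTAIR-N siRNA and 1.26 TPM with control siRNA. Immune markers summed to 1.77 to 2.68 TPM with HOTAIR-N siRNA and 2.58 to 3.08 TPM with control siRNA, of which CD14 was most, with CD3E at 0 and 4 of 5 under 1 TPM. Endothelial markers summed to 0.35 to 0.43 TPM with HOTAIR-N siRNA and 0.21 to 0.33 TPM with control siRNA, with all 4 under 1 TPM. Fibroblast markers summed to 4.22 to 4.84 TPM with HOTAIR-N siRNA and 3.12 to 3.22 TPM with control siRNA, with 3 of 5 under 1 TPM. The part of these marker differences in the results below was not tested. In bulk RNA, fewer cells with a transcript and less of it per cell cannot be told apart.

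With control siRNA, H23 cells held most of their transporter RNA in few genes. SLC1A5 averaged 131.7 ± 8.62 TPM, SLC3A2 125.8 ± 11.9, SLC38A2 119.5 ± 10.5, SLC7A5 108.1 ± 13.9 and SLC38A1 83.0 ± 9.53 TPM (SD, n = 3), and neighbours in this order overlapped. SLC7A1 with 57.1 ± 4.60 TPM, SLC6A8 with 44.4 ± 2.15 TPM and SLC7A6 with 31.6 ± 1.27 TPM followed, the first of them below every SLC38A1 value, and these 8 genes made up 81.7% of the summed TPM of all 59. By that mean, 6 genes stood at 50 TPM or more, 7 between 10 and 50, 14 between 1 and 10 and 32 under 1 TPM. With HOTAIR-N siRNA SLC38A2 ranked first, at 146.1 TPM, followed by SLC3A2 at 116.5, SLC1A5 at 105.1 and SLC7A5 at 87.0 TPM. The summed TPM of all 59 genes was 795.96, 823.73 and 827.84 with HOTAIR-N siRNA, against 857.35, 905.97 and 811.72 with control siRNA, and the groups overlapped.

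**Figure D1:**
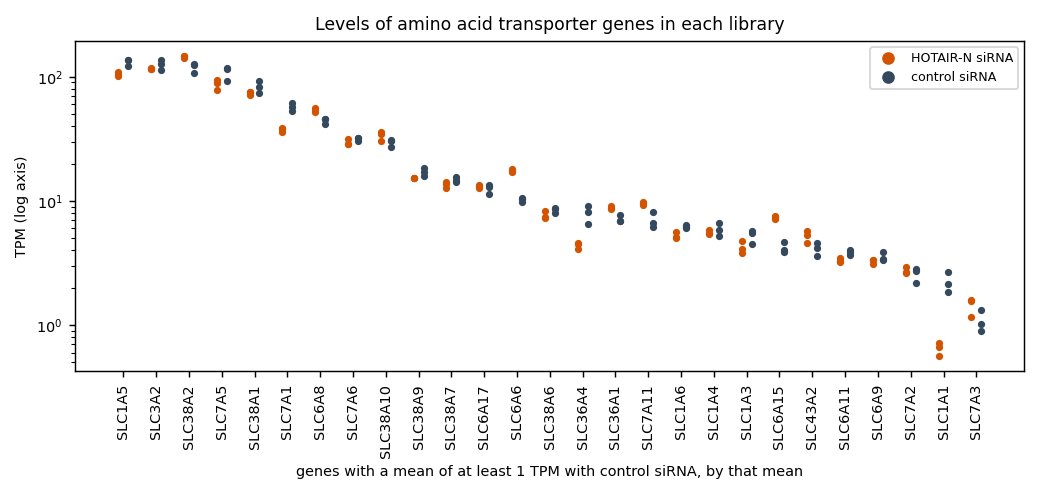
TPM of each amino acid transporter gene with a mean of at least 1 TPM with control siRNA, on a log axis, in the 3 HOTAIR-N siRNA libraries (orange, left of each pair) and the 3 control siRNA libraries (dark blue). The first 5 genes lie close together, and SLC1A1, near the right end, shows the widest gap between the groups.

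Of the 59 genes, 32 passed the filter on low counts and were tested together with the rest of the 15072 genes that passed it. With HOTAIR-N siRNA 11 were higher, where 28.7% of all tested genes were higher, and 6 were lower, where 28.8% were lower. Together 17 of 32 transporters changed, against 57.5% of tested genes, so the share was near the background. The median log2 fold change was -0.07 for the transporters and 0.006 for all tested genes, and the median size, sign left out, was 0.301 and 0.288. The groups did not overlap in CPM (counts scaled to library size) for 18 transporters, against 62.9% of tested genes. A log2 fold change of at least 0.5 in size was reached by 8 of the changed transporters, against 26.6% of tested genes. When the test was set against a fold of 1.5 in place of no change, 5 remained, SLC1A1 and SLC36A4 as lower and SLC6A6, SLC6A15 and SLC7A8 as higher, against 11.3% of tested genes.

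**Figure D2:**
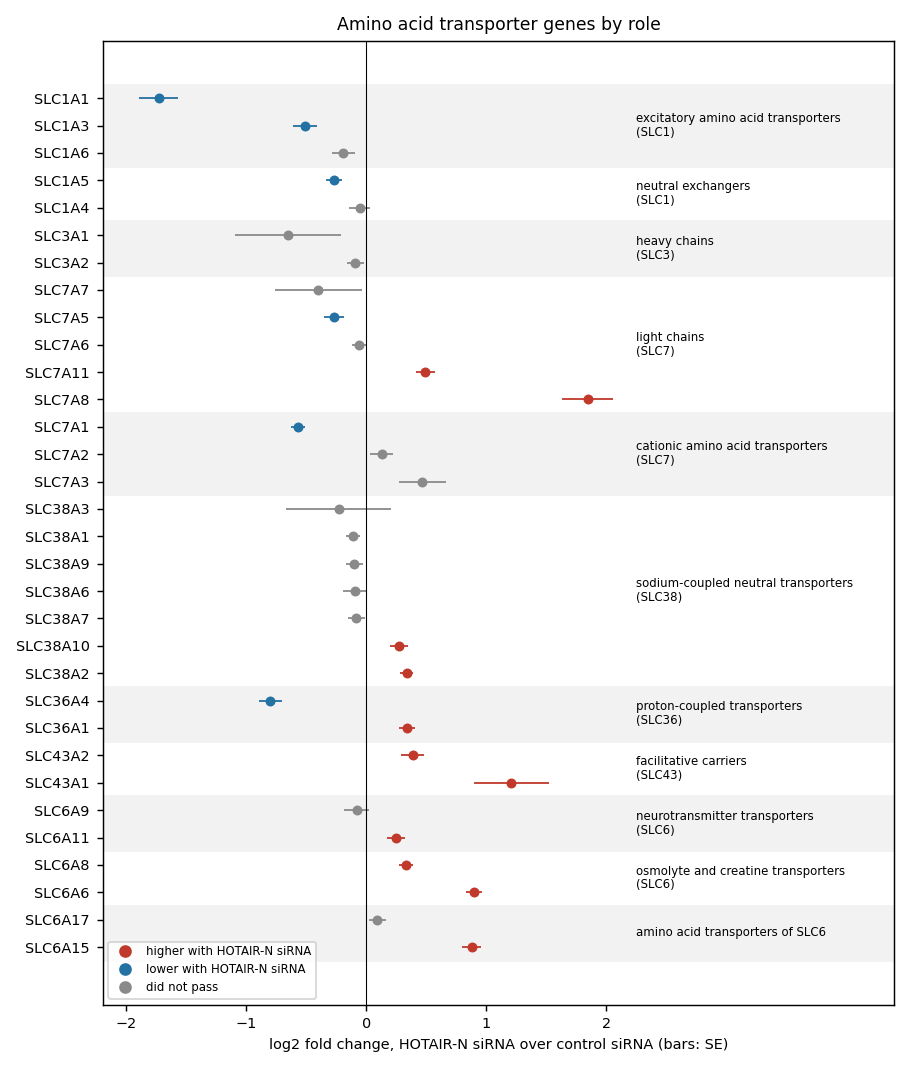
log2 fold change of the 32 tested amino acid transporter genes, HOTAIR-N siRNA over control siRNA, with bars of 1 SE, grouped by role. Red marks 11 genes that were higher, blue 6 that were lower and grey 15 that did not pass. On counts, as drawn, the changed genes of SLC6 and SLC43 lie to the right of 0 and those of SLC1 to the left. By TPM the sign of SLC6A11 is reversed.

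The promoters of several of these genes are known to hold amino acid response elements, short sites bound by ATF4, the transcription factor made when amino acids run short. RefSeq promoter windows (GRCh38.p14, 250 bases before to 50 after a start) were at hand for 44 of the 59 genes, as 66 windows, and for 25 of the 32 tested genes. The core TGATGNAA, searched on both strands, stood in 6 of the 66 windows (9.09%), against 1270 of 35116 windows of all genes (3.62%). These windows belonged to SLC1A3, SLC1A4, SLC1A5, SLC3A2, SLC7A1 and SLC38A1. All 6 genes had a log2 fold change below 0, as did 16 of the 25 tested transporters with a window. Tested transporters above 0 had a window less often than those below 0, so the search covered the directions unequally. A link between the core and the direction of change was not tested. SLC1A3, SLC1A5 and SLC7A1 were among the 6 transporters that were lower. SLC1A4, SLC3A2 and SLC38A1 did not pass and lay near 0, at -0.06, -0.09 and -0.11. The composite ATTGCATCA, which includes the core on its other strand, was in none of the 66 windows and in 0.24% of all. The antioxidant response element core TGACNNNGC was in 7 of 66 windows (10.6%), against 13.3% of all. A match to letters is a description and does not show that a factor binds there. The 3 windows below are shown because they carry the amino acid response core in the genes that were lower. They run 5' to 3' in the direction of the gene, the last 50 bases follow the start, and capitals mark matches. SLC1A3 lies at chr5:36596338-36596637 on the plus strand, at one of its 3 windows, with the core 220 bases before the start; another of its windows holds an antioxidant core and no amino acid response core. SLC7A1 lies at chr13:29595639-29595938 on the minus strand with the core from base 8 of the transcript and an antioxidant core 85 bases before the start. SLC1A5 lies at chr19:46784765-46785064 on the minus strand, also at one of 3 windows, with the core 97 bases before it.
SLC1A3: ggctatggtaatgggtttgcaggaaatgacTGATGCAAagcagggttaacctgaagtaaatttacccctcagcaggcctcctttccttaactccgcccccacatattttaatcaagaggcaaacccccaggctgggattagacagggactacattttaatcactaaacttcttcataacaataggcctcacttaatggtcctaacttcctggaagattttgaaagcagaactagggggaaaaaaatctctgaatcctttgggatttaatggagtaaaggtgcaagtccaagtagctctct
SLC7A1: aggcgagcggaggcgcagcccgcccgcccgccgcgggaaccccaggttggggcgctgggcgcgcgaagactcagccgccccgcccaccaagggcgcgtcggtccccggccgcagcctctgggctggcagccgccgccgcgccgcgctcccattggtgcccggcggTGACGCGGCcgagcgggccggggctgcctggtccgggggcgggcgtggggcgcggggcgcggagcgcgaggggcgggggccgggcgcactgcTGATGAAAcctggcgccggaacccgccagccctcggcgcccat
SLC1A5: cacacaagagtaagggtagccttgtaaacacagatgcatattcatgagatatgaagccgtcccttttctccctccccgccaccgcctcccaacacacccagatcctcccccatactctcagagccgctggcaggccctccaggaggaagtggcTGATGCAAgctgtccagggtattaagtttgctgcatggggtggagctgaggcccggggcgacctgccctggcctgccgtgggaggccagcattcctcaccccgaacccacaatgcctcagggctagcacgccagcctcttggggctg

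The excitatory amino acid transporters of SLC1 carry glutamate and aspartate into cells together with sodium. Of 3 tested members 2 were lower and none was higher, where 28.8% of all tested genes were lower and 28.7% higher. SLC1A1, which also takes up cysteine, had 0.66, 0.71 and 0.56 TPM with HOTAIR-N siRNA, against 1.86, 2.67 and 2.13 TPM with control siRNA. It fell to 30.1% of its control level, the lowest log2 fold change among the tested transporters at -1.73 ± 0.16 (SE; adjusted p = 3.64e-07, edgeR). The groups did not overlap. SLC1A3, best known from glia, had 4.77, 3.79 and 4.12 TPM with HOTAIR-N siRNA and 4.5, 5.50 and 5.71 TPM with control siRNA. It was lower in the test on counts, at -0.51 ± 0.10 (adjusted p = 5.08e-04, edgeR), and did not overlap in CPM, but in TPM the first library of each group crossed. The one of its 3 promoter windows that holds the amino acid response core is the first shown above. SLC1A6 did not pass, with a log2 fold change of -0.19 and an adjusted p of 0.0899 by edgeR, although its values of 4.98 to 5.58 TPM with HOTAIR-N siRNA all lay below the 6.06 to 6.35 TPM with control siRNA. SLC1A2 and SLC1A7 had at most 11 and 3 counts in a library and were not tested.

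The neutral exchangers SLC1A5 and SLC1A4 trade serine, alanine and, for SLC1A5, glutamine across the plasma membrane. SLC1A5 had 101.21, 105.29 and 108.93 TPM with HOTAIR-N siRNA, against 135.80, 137.57 and 121.84 TPM with control siRNA. Every HOTAIR-N siRNA library was below every control library, with a log2 fold change of -0.27 ± 0.07 (SE; adjusted p = 0.00243, edgeR), or 82.8% of the control level. Summed over both exchangers this was 110.7 ± 3.98 TPM with HOTAIR-N siRNA and 137.6 ± 9.26 TPM with control siRNA (SD, n = 3 each). SLC1A4 did not pass, at 5.45 to 5.78 TPM with HOTAIR-N siRNA and 5.21 to 6.69 TPM with control siRNA.

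The heavy chains of SLC3 did not pass, while their light-chain partners in SLC7 moved in both directions. SLC3A2, the partner of SLC7A5, SLC7A6, SLC7A7, SLC7A8, SLC7A10 and SLC7A11, had 118.53, 115.04 and 115.94 TPM with HOTAIR-N siRNA and 137.05, 127.03 and 113.35 TPM with control siRNA. Its log2 fold change was -0.09 ± 0.07 (SE; adjusted p = 0.261, edgeR), and the groups overlapped. SLC3A1, the heavy chain of the renal cystine carrier, was at 0.07 to 0.34 TPM with HOTAIR-N siRNA and 0.22 to 0.38 TPM with control siRNA, with -0.66 ± 0.44 (adjusted p = 0.217, edgeR). SLC3A1 had 3, 13 and 6 expected counts with HOTAIR-N siRNA and 9, 14 and 13 with control siRNA. It reached the filter's minimum in 1 HOTAIR-N siRNA library, replicate 2, and in 2 control libraries. Without HOTAIR-N siRNA replicate 2 it would pass as lower, with -1.35. It then enters the test only through the control group, where it is high, so that this value of SLC3A1 is given as a description. Its partner SLC7A9 had at most 12 counts.

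Among 5 tested light chains SLC7A8 and SLC7A11 were higher, SLC7A5 was lower and SLC7A6 and SLC7A7 did not pass. Over all tested genes 28.7% were higher and 28.8% lower. SLC7A8, an exchanger of neutral amino acids large and small, had 0.76, 0.99 and 0.87 TPM with HOTAIR-N siRNA, against 0.38, 0.25 and 0.25 TPM with control siRNA. It was 3.59-fold higher in the test on counts, the highest log2 fold change among the tested transporters at 1.84 ± 0.21 (SE; adjusted p = 3.60e-06, edgeR), though at a level under 1 TPM in every library. On log2(TPM + 0.1) the difference was smaller, at 1.32. The deposited length of SLC7A8 averaged 4125 nt with HOTAIR-N siRNA and 3567 nt with control siRNA. SLC7A11, which imports cystine in exchange for glutamate, had 9.28, 9.57 and 9.80 TPM with HOTAIR-N siRNA, against 6.14, 8.2 and 6.69 TPM with control siRNA. All its HOTAIR-N siRNA libraries were above all control libraries, with 0.49 ± 0.08 (adjusted p = 8.03e-05, edgeR), and its antisense gene SLC7A11-AS1 had at most 16.1 counts. SLC7A5 had 78.02, 93.64 and 89.46 TPM with HOTAIR-N siRNA and 116.70, 115.62 and 92.03 TPM with control siRNA. The groups overlapped through HOTAIR-N siRNA replicate 2 and control replicate 3, and the log2 fold change was -0.27 ± 0.08 (adjusted p = 0.0122, edgeR). That call was lost without HOTAIR-N siRNA replicate 1, control replicate 1 or control replicate 2, with adjusted p-values of 0.0701, 0.111 and 0.0590. Reads of SLC7A5 are also uncertain because of close copies in the genome, of which SLC7A5P2 had 76.89, 107.1 and 84.96 expected counts with HOTAIR-N siRNA and 69.05, 59.5 and 51.28 with control siRNA. SLC7A6, which exchanges arginine for glutamine, had 31.35, 28.57 and 28.48 TPM with HOTAIR-N siRNA and 30.16, 32.41 and 32.32 TPM with control siRNA, with -0.06 ± 0.06 (adjusted p = 0.414, edgeR). SLC7A6OS, which by its name lies on the strand opposite to SLC7A6, had 433.64 to 530.01 expected counts with HOTAIR-N siRNA and 405.79 to 520.34 with control siRNA, so that reads of this pair are uncertain where strand was not used. SLC7A7 stood at 0.23 to 0.33 TPM with HOTAIR-N siRNA and 0.24 to 0.55 TPM with control siRNA.

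Set against SLC3A2 within each library, the 6 light chains that it carries summed to 1.01, 1.16 and 1.11 times its TPM with HOTAIR-N siRNA and to 1.12, 1.24 and 1.16 times with control siRNA, and the groups overlapped. The ratio of SLC7A11 to SLC3A2 was 0.0820 ± 0.0033 with HOTAIR-N siRNA and 0.0561 ± 0.0102 with control siRNA (SD, n = 3 each), with no overlap. The ratio of SLC7A5 to SLC3A2 was 0.748 ± 0.081 with HOTAIR-N siRNA and 0.858 ± 0.049 with control siRNA, with overlap. These ratios compare transcript levels per length, and how much protein is paired was not measured.

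The cationic amino acid transporters of SLC7 bring in arginine, lysine and ornithine without a heavy chain. SLC7A1, the main one in H23 cells, had 35.83, 37.97 and 38.39 TPM with HOTAIR-N siRNA, against 57.11, 61.74 and 52.55 TPM with control siRNA. It was lower in every library and fell to 67.4% of its control level, with a log2 fold change of -0.57 ± 0.06 (SE; adjusted p = 9.96e-07, edgeR). Its promoter window, the second shown above, carries both the amino acid response core and an antioxidant core. SLC7A3 did not pass, with 1.16, 1.57 and 1.6 TPM with HOTAIR-N siRNA, 0.89, 1.02 and 1.32 TPM with control siRNA and 0.47 ± 0.20 (adjusted p = 0.0555, edgeR). Without HOTAIR-N siRNA replicate 1 or control replicate 3 it passed as higher, with adjusted p-values of 0.0283 and 0.0197. SLC7A2 did not pass, at 2.6 to 2.93 TPM with HOTAIR-N siRNA and 2.20 to 2.82 TPM with control siRNA. The whole role group summed to 41.6 ± 1.67 TPM with HOTAIR-N siRNA and 60.8 ± 4.43 TPM with control siRNA (SD, n = 3 each).

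**Figure D3:**
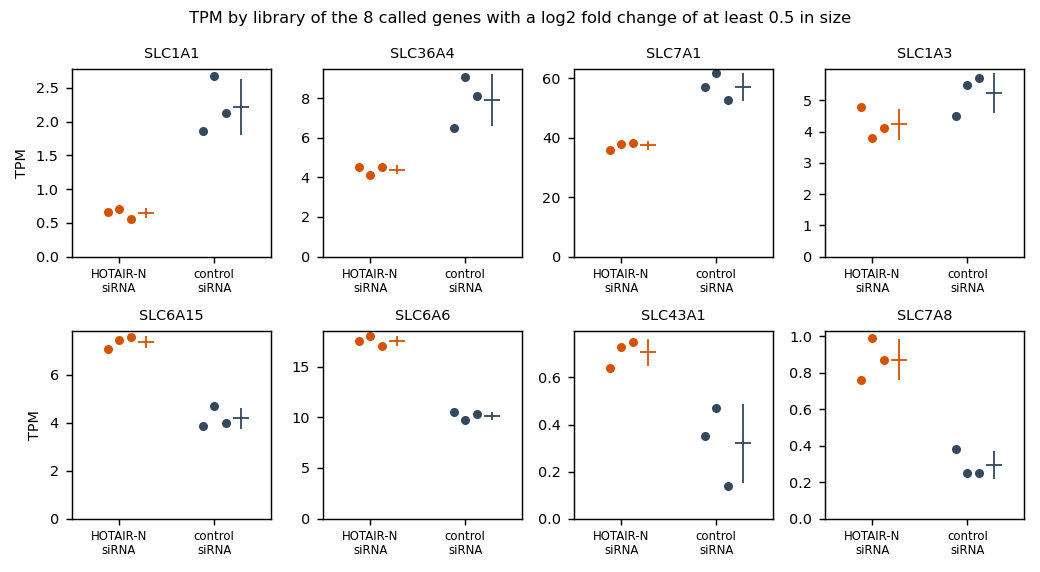
TPM by library for the 8 transporters that changed with a log2 fold change of at least 0.5 in size, with HOTAIR-N siRNA in orange on the left and control siRNA in dark blue on the right; horizontal marks with bars are means and SD of 3 libraries. The upper row holds the genes that were lower and the lower row those that were higher, and the groups overlap in TPM for SLC1A3 alone.

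The sodium-coupled transporters of SLC38 take up glutamine, alanine and other small neutral amino acids, and some of the family sit on lysosomes. Of 7 tested members SLC38A2 and SLC38A10 were higher, none was lower and 5 did not pass. Among all tested genes 28.7% were higher and 28.8% lower. SLC38A2, the carrier known to be induced when amino acids are scarce, had 147.49, 143.01 and 147.72 TPM with HOTAIR-N siRNA, against 107.48, 127.01 and 123.96 TPM with control siRNA. Each HOTAIR-N siRNA library was above each control library, with a log2 fold change of 0.33 ± 0.06 (SE; adjusted p = 1.40e-04, edgeR). SLC38A1, which takes up much the same amino acids, had 71.66, 75.74 and 75.28 TPM with HOTAIR-N siRNA and 73.79, 92.82 and 82.47 TPM with control siRNA, with -0.11 ± 0.06 (adjusted p = 0.124, edgeR). Without control replicate 1, SLC38A1 passed as lower, with -0.17 and an adjusted p of 0.00526 by edgeR. The ratio of SLC38A2 to SLC38A1 was 2.06, 1.89 and 1.96 with HOTAIR-N siRNA, against 1.46, 1.37 and 1.5 with control siRNA, so that the ratios did not overlap. SLC38A10 rose by 0.27 on the log2 scale (adjusted p = 0.00606, edgeR), at 30.32, 35.71 and 34.36 TPM with HOTAIR-N siRNA and 30.98, 30.49 and 27.03 TPM with control siRNA, and its groups overlapped in TPM but not in CPM. SLC38A9, the lysosomal arginine sensor of mTORC1, did not pass with -0.10 (adjusted p = 0.225, edgeR), at 15.2 to 15.3 TPM with HOTAIR-N siRNA and 15.8 to 18.3 TPM with control siRNA. SLC38A6, SLC38A7 and SLC38A3 did not pass either, and SLC38A3 was under 1 TPM in every library.

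The proton-coupled transporters of SLC36 carry small amino acids and are found on lysosomes and at the cell surface. Their 2 tested members went in opposite directions, where 28.7% of all tested genes were higher and 28.8% lower. SLC36A4, a carrier of proline and tryptophan, had 4.5, 4.12 and 4.54 TPM with HOTAIR-N siRNA, against 6.49, 9.08 and 8.10 TPM with control siRNA. It was lower, at 57.4% of its control level, with a log2 fold change of -0.80 ± 0.10 (SE; adjusted p = 5.30e-06, edgeR). The control libraries were more spread than the HOTAIR-N siRNA libraries, and control replicate 1 was nearest to them. SLC36A1 rose by 0.34 on the log2 scale (adjusted p = 6.80e-04, edgeR), with 9.02, 8.75 and 8.64 TPM with HOTAIR-N siRNA and 6.87, 7.64 and 6.88 TPM with control siRNA. SLC36A2 and SLC36A3 had no counts.

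The facilitative carriers of SLC43 move leucine, phenylalanine and other large neutral amino acids without sodium. Both tested members were higher, where 28.7% of all tested genes were higher. SLC43A1 had 0.64, 0.73 and 0.75 TPM with HOTAIR-N siRNA, against 0.35, 0.47 and 0.14 TPM with control siRNA. It was 2.31-fold higher, with a log2 fold change of 1.21 ± 0.32 (SE; adjusted p = 0.00429, edgeR). Its counts reached the filter's minimum in 3 HOTAIR-N siRNA libraries and 2 control libraries, so that its place among the tested genes rests on the group where it is high. Against a fold of 1.5 its adjusted p was 0.0828 by edgeR. SLC43A2 rose by 0.39 on the log2 scale (adjusted p = 0.00255, edgeR), and SLC43A3 had at most 3 counts in a library.

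In SLC6, which depends on sodium and chloride, 4 of 6 tested members were higher and none was lower, where 28.7% of all tested genes were higher and 28.8% lower. These 4 include SLC6A11, which was higher by count but lower by TPM, as the next paragraph describes. SLC6A6, the taurine transporter, had 17.52, 18.10 and 17.11 TPM with HOTAIR-N siRNA, against 10.49, 9.73 and 10.32 TPM with control siRNA. It was 1.86-fold higher, with a log2 fold change of 0.89 ± 0.07 (SE; adjusted p = 4.43e-08, edgeR), and the libraries of each group lay close together. SLC6A15, a carrier of branched-chain amino acids and proline that is known mainly from brain, had 7.10, 7.46 and 7.58 TPM with HOTAIR-N siRNA, against 3.86, 4.69 and 4.0 TPM with control siRNA. It was 1.84-fold higher, at 0.88 ± 0.08 (adjusted p = 3.02e-07, edgeR), again with no overlap. SLC6A8, the creatine transporter, had 51.82, 54.44 and 55.76 TPM with HOTAIR-N siRNA, against 45.47, 45.81 and 41.92 TPM with control siRNA. This was 0.33 ± 0.06 on the log2 scale (adjusted p = 2.46e-04, edgeR). SLC6A10P, a near copy of SLC6A8 in the genome, had at most 1 count. SLC6A17, a carrier of synaptic vesicles, and the glycine transporter SLC6A9 did not pass.

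SLC6A11, a transporter of the inhibitory neurotransmitter GABA, gave opposite directions by count and by TPM. It had 451, 446 and 461 expected counts with HOTAIR-N siRNA, against 388, 408 and 387 with control siRNA, and was higher in the test on counts, by 0.24 ± 0.08 on the log2 scale (SE; adjusted p = 0.0136, edgeR). That call was lost without HOTAIR-N siRNA replicate 1 or control replicate 3, with adjusted p-values of 0.0569 and 0.0556. Its TPM was lower with HOTAIR-N siRNA, at 3.45, 3.24 and 3.28, against 3.91, 4.04 and 3.64 with control siRNA. The deposited gene length, which weights isoforms by their level, averaged 7649 nt with HOTAIR-N siRNA and 5767 nt with control siRNA. The gene's counts lay on isoforms of unequal length. NM_001317406, of 11089 nt, had 320, 328 and 330 expected counts with HOTAIR-N siRNA, against 147, 187 and 166 with control siRNA, with a log2 fold change of 1.02 ± 0.13 (adjusted p = 0.00484, edgeR on isoforms). NM_014229, of 4296 nt, had 131, 118 and 131 expected counts with HOTAIR-N siRNA, against 241, 221 and 221 with control siRNA, with -0.79 ± 0.13 (adjusted p = 0.0129, edgeR on isoforms). The call of NM_014229 was lost without HOTAIR-N siRNA replicate 3, with an adjusted p of 0.0522. As deposited, NM_001317406 made up 49.4 ± 1.78% of the gene with HOTAIR-N siRNA and 21.7 ± 2.74% with control siRNA (SD, n = 3 each), with no overlap. No other tested transporter had opposite signs by count and TPM.

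**Figure D4:**
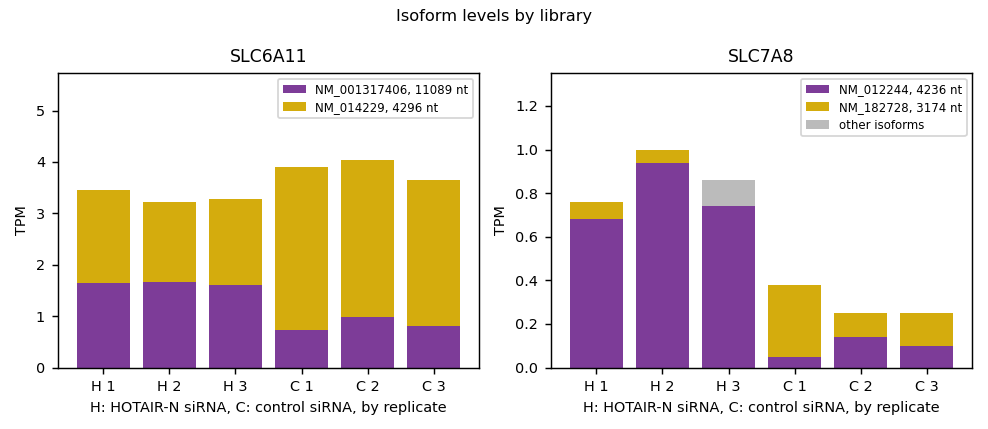
TPM of the isoforms of SLC6A11 and SLC7A8 in each library, stacked, with the 3 HOTAIR-N siRNA libraries (H) on the left and the 3 control siRNA libraries (C) on the right. The long SLC6A11 isoform takes up 47.9 to 51.3% of the bar with HOTAIR-N siRNA and 18.7 to 24.2% with control siRNA, and NM_012244 is most of SLC7A8 with HOTAIR-N siRNA.

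Over the family, 72 of 163 isoforms were tested, from 31 genes, and 18 passed, 12 as higher and 6 as lower, where 19.5% of all tested isoforms passed. SLC7A8 had 49, 69 and 57 expected counts of NM_012244 with HOTAIR-N siRNA, against 4, 10 and 8 with control siRNA. This isoform is among the 12 higher ones, but it reached the filter's minimum in 3 HOTAIR-N siRNA libraries and 0 control libraries, so that it entered the test only through the group where it is high, and its counts are given as a description. The shorter NM_182728 had 4, 3 and 0 counts with HOTAIR-N siRNA and 18, 6 and 8 with control siRNA and was not tested. Both tested SLC6A15 isoforms that passed were higher, NM_182767 by 1.04 (adjusted p = 0.00421) and NM_018057 by 0.60 (adjusted p = 0.0373, edgeR), and so was NM_003043 of SLC6A6, by 0.95. SLC3A2, whose gene level did not pass, had NM_001012662 lower at -0.24 and the non-coding NR_037193 higher at 0.86 (adjusted p = 0.0416 and 0.0200, edgeR). NR_037193 made up 4.56 ± 0.28% of SLC3A2 with HOTAIR-N siRNA and 2.45 ± 0.44% with control siRNA (SD, n = 3 each). NM_004172 made up 54.7 ± 4.93% of SLC1A3 with HOTAIR-N siRNA and 81.3 ± 4.77% with control siRNA and was lower at -0.82 (adjusted p = 0.0413, edgeR). The other isoforms that passed were those of SLC1A1 (NM_004170), SLC7A1 (NM_003045) and SLC36A4 (NM_152313), which were lower, and those of SLC6A8 (NM_001142806 and NM_005629), SLC7A11 (NM_014331), SLC36A1 (NM_078483), SLC38A2 (NM_018976) and SLC38A10 (NM_001037984), which were higher. Of the 18, 6 kept their call whichever library was left out, namely NM_001317406, NM_003043, NM_003045, NM_004170, NM_018976 and NM_182767. The calls of NM_001012662 and NM_018057 were lost whichever library was left out, at adjusted p-values of 0.0711 to 0.138 and 0.0562 to 0.127. NR_037193 kept its call only without control replicate 3 and NM_004172 only without control replicate 1, and their adjusted p-values otherwise reached 0.0750 and 0.119. NM_001037984, NM_001142806, NM_005629, NM_014331, NM_078483 and NM_152313 each lost theirs in 3 to 5 of the 6 cases, at up to 0.147.

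A change of isoform use asks whether the isoforms of 1 gene moved unequally. None of the 22 transporters with several tested isoforms passed in that test, which passed 4.13% of all genes tested for it (edgeR diffSpliceDGE, adjusted p). SLC6A11 came to an adjusted p of 0.794 there, with an unadjusted p of 0.0932, although its isoforms passed singly in opposite directions. Genes with 1 tested isoform, SLC7A8 among them, could not enter that test. The division of shared reads between isoforms is itself an estimate whose error the tables do not state.

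The other 27 transporters did not pass the filter and are known for the most part from kidney, gut, liver or brain. No count was listed in any library for SLC6A2, SLC6A5, SLC6A7, SLC6A18, SLC7A13, SLC7A14, SLC36A2, SLC36A3 and SLC38A11. A count of 0 allows up to 3 counts, or 0.0849 to 0.0917 CPM with HOTAIR-N siRNA and 0.0820 to 0.0864 CPM with control siRNA, in counting error only. SLC1A7, SLC6A3, SLC6A19, SLC7A4, SLC38A8 and SLC43A3 reached at most 3 counts. Another 12 reached at most 4 to 19, among them SLC1A2, SLC6A4, SLC6A12, SLC6A13, SLC6A14, SLC6A16, SLC6A20, SLC7A9, SLC7A10, SLC38A4 and SLC38A5. SLC6A12, the betaine transporter, had 7, 5 and 4 counts with HOTAIR-N siRNA and 9, 10 and 19 with control siRNA, and with no filter it would pass as lower (adjusted p = 0.0309, edgeR).

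Pathways around the carriers were read from the same fit, as counts beside those of all genes. These lists were chosen with earlier results of these data known. Their shares of changed genes, here and in the paragraphs below, are therefore descriptions, and no list was tested. The ATF4 list holds that factor, its partners and genes of the amino acid response, whose enzymes make serine, asparagine and proline. Of 32 tested members 12 were higher, 17 lower and 3 did not pass, so that 90.6% changed, against 57.5% of all tested genes (28.7% higher and 28.8% lower). The median log2 fold change was -0.18, against 0.006 for all tested genes. CTH, which makes cysteine from cystathionine, had 46.45, 46.10 and 45.43 TPM with HOTAIR-N siRNA, against 15.64, 17.54 and 16.44 TPM with control siRNA (log2 fold change 1.52, adjusted p = 1.55e-10, edgeR). ATF5, a transcription factor downstream of ATF4, had 14.78, 15.77 and 16.70 TPM with HOTAIR-N siRNA, against 51.33, 49.03 and 41.61 TPM with control siRNA (-1.52, adjusted p = 1.86e-09, edgeR). The asparagine synthetase ASNS and the mitochondrial folate enzyme MTHFD2 were lower too, at -0.64 and -0.62. ATF4 itself was lower, at -0.31 (adjusted p = 4.17e-04, edgeR). The serine enzymes PSAT1, PHGDH and PSPH were lower as well, at -0.40, -0.39 and -0.26. Other factors and targets of the list were higher, among them CEBPB, DDIT4, TRIB3 and SESN2, at 0.56, 0.49, 0.40 and 0.35. With 12 members higher and 17 lower, the list as a whole had no single direction. SLC38A2 and SLC7A11, often counted among targets of the amino acid response, were higher while SLC7A1, SLC7A5 and SLC1A5 were lower.

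Glutathione is made from the cystine that SLC7A11 and SLC3A2 import. Of 13 tested genes 7 were higher, 3 lower and 3 did not pass, with a median of 0.23, and 76.9% changed, against 57.5% of all tested genes. GGCT, an enzyme of the glutathione cycle, had 232.76, 229.29 and 230.02 TPM with HOTAIR-N siRNA, against 108.56, 123.35 and 119.47 TPM with control siRNA (log2 fold change 1.06, adjusted p = 1.17e-09, edgeR). CHAC1, which breaks glutathione down, had 3.33, 4.03 and 4.13 TPM with HOTAIR-N siRNA, against 10.67, 8.90 and 7.96 TPM with control siRNA (-1.21, adjusted p = 2.77e-06, edgeR). GGT7 and the thioredoxin reductase TXNRD1 were higher, at 0.89 and 0.32. The other lower genes were GCLC and GCLM, which belong to glutathione synthesis, at -0.39 and -0.25 (adjusted p = 1.66e-04 and 0.00629, edgeR). GSS, which also belongs to glutathione synthesis, was higher, at 0.23 (adjusted p = 0.00228, edgeR).

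Among 18 tested enzymes of glutamine and glutamate 6 were higher, 4 lower and 8 did not pass, with a median of -0.06, and the 55.6% that changed were near the 57.5% of all tested genes. ASNS, which is also in the ATF4 list, and the aspartate aminotransferase GOT1 were lower, at -0.64 and -0.39. The glutaminase GLS2 was higher at 1.22, with 3.74, 3.54 and 3.37 TPM with HOTAIR-N siRNA and 1.3, 1.64 and 1.75 TPM with control siRNA, and so was the glutamate dehydrogenase GLUD1, at 0.31.

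Of 36 tested genes of amino acid sensing upstream of mTORC1, the kinase complex that drives growth when amino acids are plentiful, 12 were higher, 7 lower and 17 did not pass, with a median of 0.019. The 52.8% that changed were near the background of 57.5%. RHEB, the small GTPase that switches mTORC1 on, had 106.65, 98.99 and 101.47 TPM with HOTAIR-N siRNA, against 157.04, 164.75 and 169.84 TPM with control siRNA (log2 fold change -0.63, adjusted p = 2.45e-07, edgeR). NPRL3, part of a complex that restrains mTORC1, was lower at -0.74. SESN3, of the family of leucine sensors, and the Rag GTPase RRAGD were higher at 1.6 and 1.48, both from under 1 TPM with control siRNA.

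Carriers of amino acids outside the chosen families, mostly mitochondrial or vesicular, gave 9 higher, 1 lower and 9 not passing of 19 tested, with a median of 0.12. Among all tested genes 28.7% were higher and 28.8% lower, and the 52.6% of these carriers that changed were near the 57.5% over all genes. The mitochondrial glutamate carrier SLC25A22 had 35.32, 40.26 and 38.68 TPM with HOTAIR-N siRNA, against 24.28, 23.49 and 21.22 TPM with control siRNA (log2 fold change 0.77, adjusted p = 4.44e-07, edgeR). The mitochondrial serine carriers SFXN1 and SFXN3 and the vesicular glutamate carrier SLC17A7 were higher as well, at 0.55, 0.52 and 0.86. SLC25A44, a mitochondrial carrier of branched-chain amino acids, was the lower one, at -0.15.

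Of 13 tested genes for trafficking and stability of the carriers 6 were higher, 4 lower and 3 did not pass, with a median of -0.11, and 76.9% changed, against 57.5% of all tested genes. ARL6IP1 had 71.78, 65.12 and 69.81 TPM with HOTAIR-N siRNA, against 252.36, 287.07 and 282.18 TPM with control siRNA (log2 fold change -1.95, adjusted p = 1.26e-11, edgeR), while ARL6IP5, which holds the glutamate carrier SLC1A1 in the endoplasmic reticulum in rodents, was higher at 0.73. The kinases SGK3 and SGK2 were at 0.61 and -1.38. SGK2 was under 1 TPM in every library, with 10, 11 and 12 expected counts with HOTAIR-N siRNA and 31, 31 and 27 with control siRNA.

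**Figure D5:**
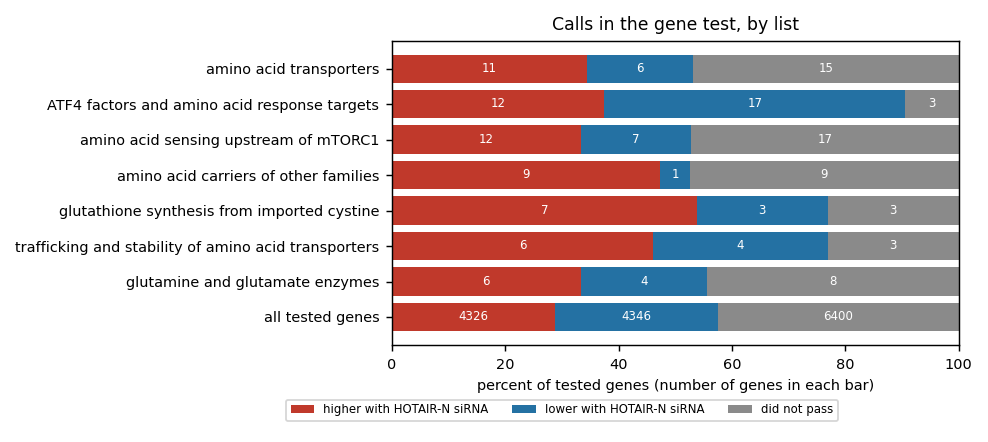
Percent of tested genes that were higher (red) or lower (blue) with HOTAIR-N siRNA or did not pass (grey), with the number of genes in each bar, for the amino acid transporters, the pathway lists and all tested genes. The transporters divide as 11, 6 and 15, and the ATF4 list has the smallest share of genes not passing, 3 of 32. The lists were chosen with earlier results of these data known, and the shares are a description.

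The word GACCAAT in 3' untranslated regions was also looked up, since earlier results of these data showed that genes carrying it tended to be lower. It stood in 692 of 13220 tested genes with such a region in GENCODE release 29 (5.23%), whose median log2 fold change was -0.38 against 0.01 for genes without it. The word was looked up because of these same data, so these medians restate that choice and are no separate result. Among the 32 tested transporters it stood in SLC7A2 alone (3.12%), which did not pass, and in none of the 6 that were lower.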

How the data were processed

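RNA from 3 HOTAIR-N siRNA and 3 control siRNA transfections of H23 cells was sequenced after ribosomal RNA depletion with a stranded kit, per the labels' protocols. Per the submitters' processing notes, STAR 2.6.0c, RSEM 1.3.0 and the build hg19 were used. The strand setting and the annotation release were not given in the sources used, so antisense and overlapping genes are uncertain. The authors deposited expected counts and TPM per gene (27968) and isoform (70006), and each isoform's percent of its gene, per the file headers. Member counts were not whole in 9.9% of cases, since RSEM divides shared reads, and that error adds to counting error. Depth was 32715361 to 36578681 expected counts per library.

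After rounding, expected counts were compared by edgeR 4.0.16 under R 4.3.3 (filterByExpr, TMM scaling, robust quasi-likelihood test, Benjamini-Hochberg adjusted p under 0.05 over all 15072 genes or 32627 isoforms). Isoform use was tested with diffSpliceDGE and Simes p-values over 7523 genes. HOTAIR was also compared by an exact two-sided permutation test of its log2 CPM (prior count 2), with p = 0.1, the smallest that 3 against 3 allow. Ratios and level orders use the deposited TPM. The steps were tested on simulated data.

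The transporters and lists were chosen with earlier results of these data known. Values per library are given for changed members with a log2 fold change of at least 0.5 in size, for the 8 highest in TPM with control siRNA, and for others where a sentence turns on them, and for up to 4 genes of each list with the smallest p the log2 fold change. Isoforms named are those that passed. Of the members that were not tested, 1 is not reported here by name. SLC6A11 counts, SLC7A5P2, SLC6A10P, SLC25A44, NM_182728 and the values of SLC1A6, SLC7A3, SLC6A12 and SLC38A9 were added after they were seen. So were the values of ATF4, PSAT1, PHGDH, PSPH, CEBPB, DDIT4, TRIB3, SESN2, GCLC, GCLM and GSS, the counts of SLC3A1 and SGK2 and the length of SLC7A8. Replicate numbers come from the sample titles. Alternatives were other scalings, DESeq2 1.42.0, a fold of 1.5, no filter or at least 1 CPM in 3 libraries, a replicate block, log2(TPM + 0.1) and each library left out.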

Additional observations from a re-analysis of the deposited data

How the results depend on the processing

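Of the 17 transporters that changed, 15 kept call and direction in all 12 alternatives other than the test against a fold of 1.5, the exceptions being SLC7A5 and SLC6A11 when 1 library was left out. The 12 were the other scalings, DESeq2, no filter, the replicate block and each library left out. They do not include the filter of at least 1 CPM in 3 libraries. SLC43A1, called higher with at most 33 counts in a library, lies below that filter. Over 416 values of members under 13 alternatives on counts, 389 kept direction and side of the threshold, 17 lost a call (12 of them against a fold of 1.5), 6 gained one and 4 changed sign. These sign changes were in genes that did not pass. With 1 library left out, SLC38A3 ranged from -0.69 to 0.185, above 0 without HOTAIR-N siRNA replicate 1 (0.0865) or control replicate 2. SLC6A9 ranged from -0.12 to 0.0025, above 0 without control replicate 1, and SLC1A4 from -0.13 to 8.11e-06, above 0 without control replicate 2. SLC7A3 passed with upper-quartile scaling and with none beyond the library total (adjusted p = 0.0439 and 0.0470, edgeR). With 1 library left out, 11 to 12 members were higher and 5 to 7 lower, and HOTAIR stayed at -1.14 to -0.94. Against a fold of 1.5, 1700 genes changed, and 3 members were higher and 2 lower. RLE, upper-quartile and unscaled totals shifted the median by -0.0032, 0.0223 and 0.0216. On log2(TPM + 0.1), 13 of 32 members lay above 0 and 19 below, against 14 and 18 on counts, and the called gene SLC6A11 changed sign there, to -0.21 against 0.24.

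Libraries with the same replicate number did not deviate together from their group means (correlations of -0.121, 0.021 and -0.038), so they share only a number. With a replicate block the number of genes changed was 7984 against 8672, and members numbered 11 higher and 6 lower as without it. The number of isoforms changed was 2012 with the block against 6362, and genes with isoform use changed 141 against 311. With the block 5 of the 18 member isoforms kept their call, NM_001317406, NM_003043, NM_003045, NM_004170 and NM_182767, while NM_018976, which kept it whichever library was left out, lost it (adjusted p = 0.0668, edgeR). With no filter 13 kept it. The number of isoforms changed was 3551 to 5647 with 1 library left out, the fewest without HOTAIR-N siRNA replicate 3. Genes with changed isoform use numbered 186 to 251, the fewest without control replicate 3, and 202 with no filter. The cause of these differences was not tested. The 27 members not tested had at most 19 counts in a library, which limits what can be seen of them at this depth.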
